A study of Mus musculus with 10 samples.

Results

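Translation initiation and elongation factors are the proteins that load ribosomes onto messenger RNA and drive them along it. They were taken here as all genes with a single-gene probe whose annotated symbol begins with Eif1 to Eif6 or with Eef1 or Eef2, leaving out the symbols that begin with Eif2c or Eif2ak. The rule gave 54 genes of the 18012 genes with a tested single-gene probe, through 69 probes, and the probe brightest on average over the 10 arrays stood for each gene. The rule itself uses symbols and mean levels and no difference between the groups. The symbols also bring in regulators that are not factors themselves, such as the eIF4E-binding proteins, the kinase of eEF2 and methyltransferases that act on eEF1A. Probes that named several genes, 6 of which included a factor, were not used.

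Liver RNA of 10 mice was hybridised to 1-colour CodeLink arrays, 1 array per mouse. In the ASO group, 5 male C57Bl/6 mice were given, by intraperitoneal injection, a 2′-O-methoxyethyl phosphorothioate antisense oligonucleotide against miR-122, the main microRNA of hepatocytes, in doses of 50 mg/kg over 4 weeks with 2 injections a week. In the saline group, 5 mice were injected with saline on the same schedule, while the labels do not name their sex or strain. The mice were killed 2 days after their final injection. Saline was the only control, so effects of blocking miR-122 and effects of an oligonucleotide of this chemistry cannot be told apart in the difference between the groups.

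Initiation begins when eIF2 brings the initiator tRNA to the small ribosomal subunit, where eIF1, eIF1A and the large eIF3 complex hold it ready. The eIF4 factors bind the cap of the messenger RNA and unwind its leader, eIF5 and eIF5B allow the large subunit to join, and eEF1 and eEF2 then deliver each aminoacyl-tRNA and move the ribosome on. Liver exports much of the protein it makes, and its rate of translation is set largely by phosphorylation of eIF2, of the eIF4E-binding proteins and of eEF2, which arrays of messenger RNA do not measure.

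Levels are given on a log2 scale of the deposited array intensity, on which the median of all tested probes was 0.03 and the floor -2.38, and differences are ASO minus saline on that scale. Levels of different probes are not compared, because probes differ in how they bind. Of 8 hepatocyte markers 6 were measured, and their log2 summed intensity was 12.23 to 12.62 in ASO livers and 11.10 to 12.35 in saline livers, with Alb, which encodes albumin, at 10.40 ± 0.21 and 9.83 ± 0.59 (SD, n = 5 each). These ranges overlapped, and 5 of the genes were higher and 1 lower. Summed markers of other liver cells also overlapped between the groups, at 4.81 to 6.81 in ASO and 5.56 to 6.93 in saline livers for 4 Kupffer cell and macrophage genes and at 2.64 to 3.07 and 2.90 to 3.59 for 5 T, B and NK cell genes. The ranges were 5.03 to 6.77 in ASO and 5.59 to 6.42 in saline livers for 5 endothelial genes, and 5.16 to 6.58 and 5.39 to 6.47 for 5 stellate genes. They were 2.41 to 2.86 in ASO and 2.60 to 2.94 in saline livers for 4 bile duct genes, and 4.99 to 6.43 and 5.65 to 6.69 for 3 red blood cell genes. A sum is weighted towards its brightest genes, and single markers could differ more. Ms4a1 in the T, B and NK cell list had -0.57 ± 0.16 (SE, limma adjusted p = 0.246). For it, every ASO liver lay below every saline liver. Cdh5 in the endothelial list had 0.87 ± 0.28 (limma adjusted p = 0.283), and Krt19 in the bile duct list -0.62 ± 0.24 (limma adjusted p = 0.377). These lists had 2 genes higher and 3 lower, 4 and 1, and 2 and 2. Every measured marker averaged above the floor of -2.38, but Cd3e in the T, B and NK cell list averaged only -2.271. Cd3e stood at the floor in saline mice 1 to 4 and in ASO mice 4 and 5. The part of these cell types in the values below was not tested. In whole liver, fewer cells of a type and less RNA per cell cannot be told apart. The brightest probe of saline replicate 1 reached 9.08, against 10.23 or more on each other array, and the highest translation factor on it stood at 7.70. The hepatocyte markers Alb, Apoa1, Ttr and Fgb each had their lowest value on that array, at 8.79 to 8.89.

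No translation factor passed the test. Of 54 members, 0 had an adjusted p under 0.05 in limma (smallest 0.246, largest 0.996), where 0.0888% of all genes, 0.119% of the 10945 genes above the median level and 0.0637% of all 36088 probes were called. At an unadjusted p under 0.05 there were 6 members, 1 higher and 5 lower in ASO livers, beside 4.21% of all genes higher and 8.26% lower. Among genes above the median level, where 52 of the 54 members stood, the shares were 3.53% higher and 11.3% lower. Both directions together made 12.5% of all genes and 14.9% of genes above the median level, so the share of members, 6 of 54, was near the background. After quantile normalization the split of the members was 4 higher and 3 lower, and after cyclic loess 3 and 3. Groups that did not overlap were found in 1 member higher and 1 lower, beside 0.96% and 1.72% of all genes and 1.03% and 2.43% of genes above the median level. The lower count was 2 without ASO replicate 2, ASO replicate 4 or saline replicate 3, and 3 without saline replicate 5.

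The median log2 fold change over the members was -0.069, with 21 higher and 33 lower (61.1% lower), beside -0.040 over all genes (54.9% lower) and -0.11 over genes above the median level (62.6% lower). Its sign depended on the scaling, since it was 0.090 after quantile normalization and 0.038 after cyclic loess. The genes above the median level then had 0.0035 and -0.015, so quantile normalization moved them by over 0.1. A fold over 1.5, the cut-off that the design text gives, was estimated for 0 members in the higher direction, beside 3.56% of all genes and 2.76% of genes above the median level. It was estimated for 4 in the lower direction, beside 9.33% and 12.3%. These were Eef1g, Eif4ebp1, Eif3m and Eif2s3y. Eif4ebp1 (-0.48 without saline replicate 1), Eif3m (-0.58 without ASO replicate 1) and Eif2s3y (-0.38 without ASO replicate 5) lay inside 1.5-fold when that array was left out. In 46 of 54 members the 95% interval of the difference lay inside 2-fold in either direction, and in 16 it lay inside 1.5-fold, so a change of 1.5-fold was within the error for the rest.

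**Figure D1:**
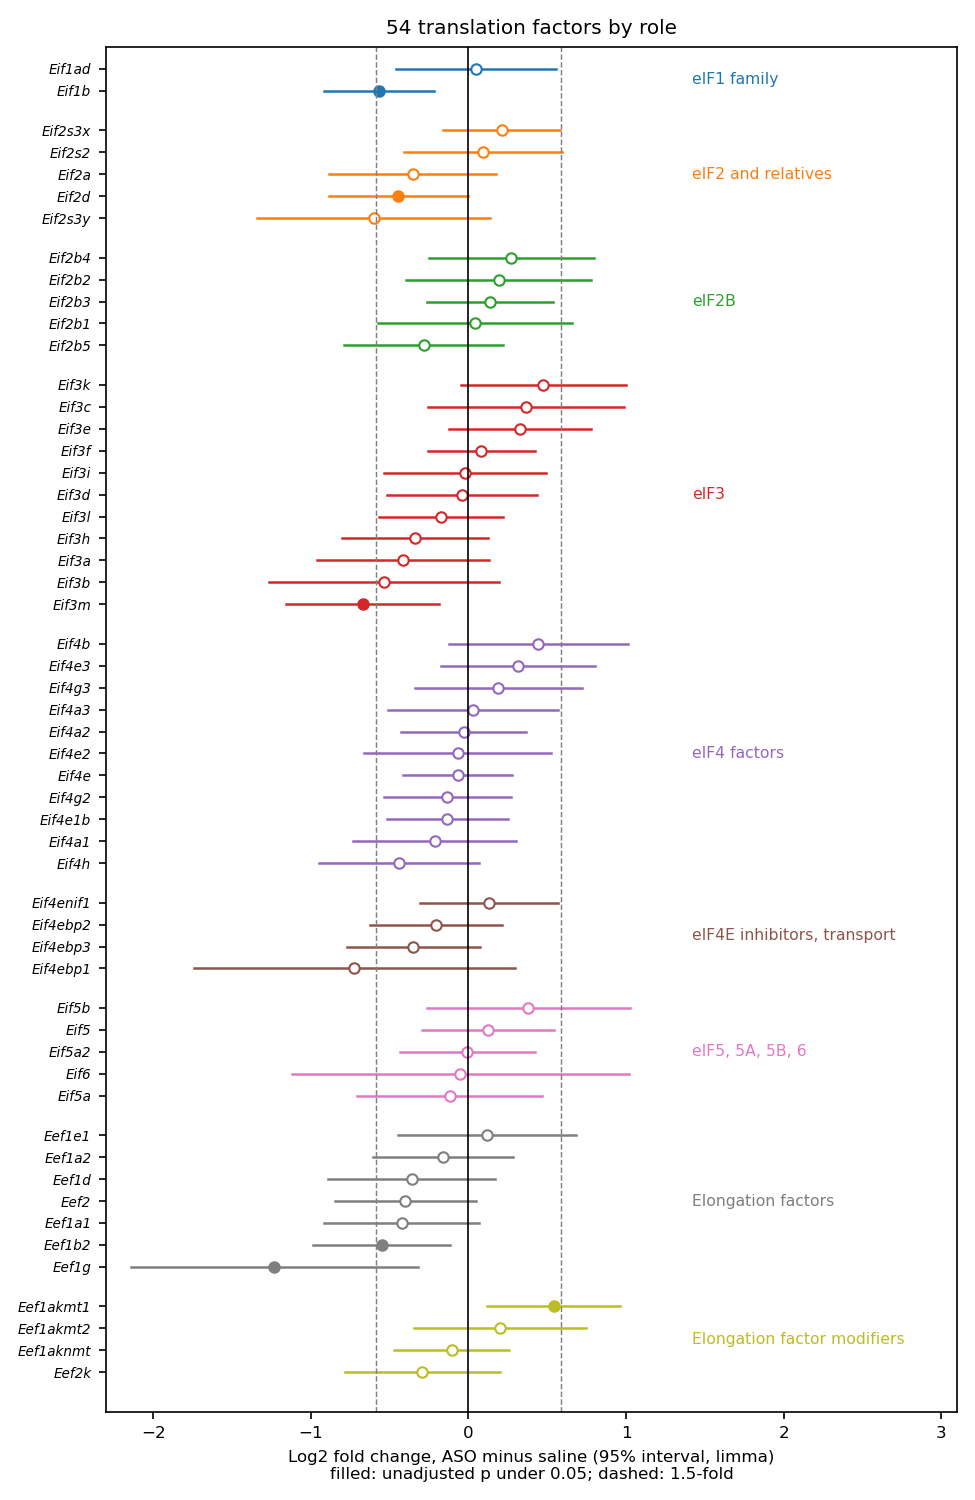
Log2 fold change of each of the 54 translation factors, ASO minus saline, with its 95% interval from limma (5 mice per group), ordered by role. Filled points have an unadjusted p under 0.05 (6 members), dashed lines mark 1.5-fold, and most intervals cross 0.

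**Figure D2:**
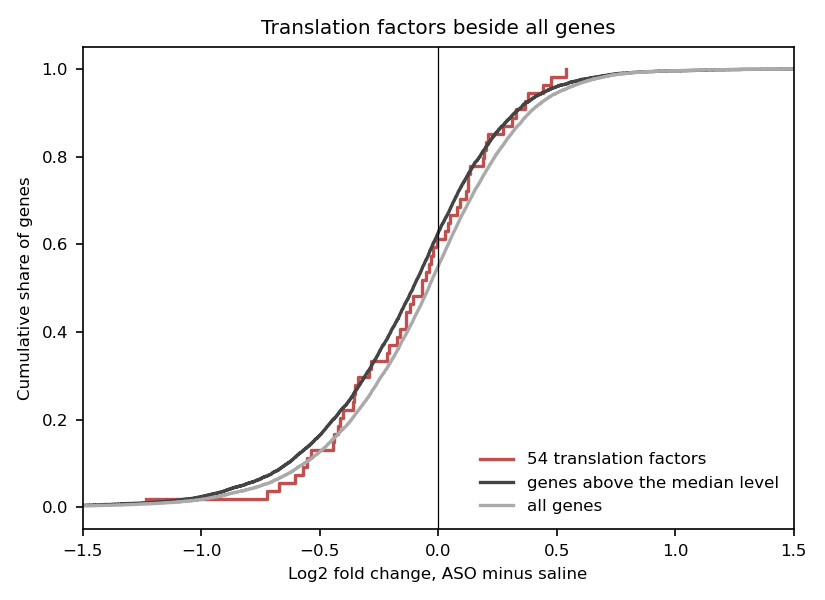
Cumulative share of genes (vertical axis) at or below each log2 fold change, ASO minus saline (horizontal axis), for the 54 translation factors, the genes above the median level and all genes. The curve of the factors runs along those of the other genes, with medians of -0.069, -0.11 and -0.040.

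The group named for start site selection held 2 genes. Eif1b, a close relative of the eIF1 that guards the choice of start codon, had the smallest p of all members. Its log2 levels were 3.39, 3.50, 3.47, 3.59 and 3.91 in ASO mice 1 to 5, against 4.33, 4.27, 4.06, 3.99 and 4.06 in saline mice 1 to 5. Every ASO liver lay below every saline liver. The log2 fold change was -0.57 ± 0.16 (SE), with a 95% interval of -0.92 to -0.22, a limma adjusted p of 0.246 and an exact two-sided permutation p of 0.00794, the smallest that 5 arrays against 5 can give. Eif1ad, which carries a domain like that of eIF1A, had 0.050 ± 0.23 (limma adjusted p = 0.958), with the opposite sign in 2 of 18 alternatives.

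The group of eIF2 and its relatives, named for delivering the initiator tRNA, gave mixed values over 5 genes, 2 higher and 3 lower. Eif2d, a factor that can place tRNA on the small subunit without GTP, stood at 0.84, 0.59, 0.97, 0.93 and 0.73 in ASO mice, against 0.83, 0.90, 1.30, 1.73 and 1.50 in saline mice. Saline mice 1 and 2 lay among the ASO values, and the other 3 lay above them. Its log2 fold change was -0.44 ± 0.20 (SE, limma adjusted p = 0.440, exact permutation p = 0.0714), and the unadjusted p stayed under 0.05 in 5 of 18 alternatives.

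The gamma subunit of eIF2 is encoded by a gene on the X chromosome and a close copy on the Y chromosome, and the array carried a probe for each. Eif2s3y, the Y-linked gene, had log2 levels of 4.26, 3.34, 3.55, 3.55 and 2.56 in ASO mice and 4.78, 4.45, 3.72, 4.00 and 3.31 in saline mice, so its signal was well above the floor in each of the 10 livers. The groups overlapped (log2 fold change -0.60 ± 0.34, limma adjusted p = 0.534), and the difference was -0.80 without ASO replicate 1 and -0.38 without ASO replicate 5. Eif2s3x had 6.28 ± 0.24 in ASO livers and 6.07 ± 0.17 in saline livers (SD, n = 5 each), which differed by 0.21 ± 0.17 on the log2 scale (SE, limma adjusted p = 0.668). Whether the probes tell the copies apart was not tested, since probe sequences were not used here. The remaining members, Eif2s2 and Eif2a, had log2 fold changes of 0.091 and -0.35.

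The exchange factor eIF2B recharges eIF2 with GTP and is the step that phosphorylated eIF2 blocks. Of its 5 subunits 4 were higher and 1 lower, with log2 fold changes of -0.28 to 0.27, none called in limma. Eif2b4, a regulatory subunit, averaged 6.33 ± 0.34 in ASO livers and 6.06 ± 0.42 in saline livers (SD, n = 5 each), with limma adjusted p = 0.693. Eif2b5, the catalytic subunit, averaged 4.30 ± 0.46 and 4.58 ± 0.23 (limma adjusted p = 0.669).

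The eIF3 complex, the scaffold of the small subunit during initiation, had 11 measured subunits, 4 higher and 7 lower, with log2 fold changes of -0.67 to 0.48. Eif3m stood at 4.13, 4.90, 4.41, 4.79 and 4.29 in ASO mice, against 5.49, 5.46, 4.62, 5.26 and 5.02 in saline mice. The groups overlapped only through saline mouse 3, which lay below ASO mice 2 and 4. Its log2 fold change was -0.67 ± 0.22 (SE, 95% interval -1.16 to -0.18, limma adjusted p = 0.297, exact permutation p = 0.0318).

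Eif3k, another eIF3 subunit, lay on the other side, at 5.76, 5.94, 6.15, 6.21 and 6.53 in ASO mice, against 5.77, 6.11, 4.97, 5.94 and 5.42 in saline mice. The lowest 2 values were saline and the highest 3 were ASO, with overlap between (log2 fold change 0.48 ± 0.24, limma adjusted p = 0.483, exact permutation p = 0.0873). A second Eif3k probe gave 0.29 ± 0.23. Eif3l had -0.17 ± 0.18 (limma adjusted p = 0.746). The median of the 11 subunits was -0.040, and 0.087 after quantile normalization and 0.088 after cyclic loess, so no direction for the complex held across scalings.

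The group of eIF4 factors, named for binding the cap and unwinding the leader, counted 11 genes, 4 higher and 7 lower. Not every member fits the name, since Eif4a3 encodes an RNA helicase of the exon junction complex. Log2 fold changes were -0.44 to 0.44, and 0 genes had an unadjusted p under 0.05 in limma. Eif4h and Eif4b, both helpers of the helicase eIF4A, stood at the opposite ends of this range. Eif4h averaged 1.31 ± 0.42 in ASO livers and 1.75 ± 0.30 in saline livers (SD, n = 5 each), with limma adjusted p = 0.505, and Eif4b averaged 6.11 ± 0.32 and 5.67 ± 0.51, with limma adjusted p = 0.546 and a second probe of opposite sign, given below. The cap-binding protein Eif4e itself had a log2 fold change of -0.069 ± 0.16, with a 95% interval of -0.42 to 0.28 (0.12 after quantile normalization). The helicase genes Eif4a1 and Eif4a2 had -0.21 ± 0.24 and -0.031 ± 0.18. Eif4e1b was the 1 member with a value at the floor. The median of the group was -0.068, and 0.12 after quantile normalization.

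Proteins that hold eIF4E back or carry it counted 4 genes. Eif4ebp1, whose product blocks eIF4E until it is phosphorylated, was the most variable of them, at 4.70, 2.59, 3.43, 2.76 and 3.28 in ASO mice, against 5.04, 3.55, 3.03, 4.91 and 3.84 in saline mice. ASO mouse 1 lay with the higher saline livers and saline mouse 3 with the ASO livers. The log2 fold change was -0.72 ± 0.47 (SE, 95% interval -1.74 to 0.30, limma adjusted p = 0.585), and it was -1.06 without ASO replicate 1, -0.48 without saline replicate 1 and -0.45 with array weights. Eif4ebp3, a related inhibitor, had -0.35 ± 0.19 (limma adjusted p = 0.528), and Eif4ebp2 and the transport protein gene Eif4enif1 had -0.21 and 0.13.

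Of the late initiation factors, 2 of 5 genes were higher and 3 lower. An unadjusted p under 0.05 in limma was found in 0, beside 12.5% of all genes in either direction. The 95% interval lay inside 2-fold in 3 of the 5 and inside 1.5-fold in 2, so larger changes were within the error for the rest. Eif6 had the widest interval, at -0.052 ± 0.49 (SE, 95% interval -1.12 to 1.02). Eif5, which makes eIF2 hydrolyse its GTP, averaged 7.19 ± 0.32 in ASO livers and 7.06 ± 0.20 in saline livers (SD, n = 5 each). Eif5a, the protein that carries hypusine and helps ribosomes over difficult stretches, had -0.12 ± 0.27, and its relative Eif5a2 had -0.0062 ± 0.20, with limma adjusted p of 0.901 and 0.996. The sign of both depended on the scaling, with 0.030 and 0.13 after quantile normalization. Eif5b, the GTPase of subunit joining, read near the lower part of the scale, with 0.31 in ASO mouse 1 and -0.60 to -0.38 in the other ASO mice, against -1.79 in saline mouse 4 and -0.65 to -0.30 in the other saline mice. Its log2 fold change of 0.38 ± 0.30 (limma adjusted p = 0.655) was 0.11 without saline replicate 4.

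Elongation factors were the role group whose members most often had lower means in ASO livers. Of 7 genes, 6 had negative and 1 had positive log2 fold changes, with a median of -0.40, and 2 had an unadjusted p under 0.05, both lower, but 0 passed in limma (smallest adjusted p 0.306). Over all genes 54.9% had negative values and 8.26% were lower at an unadjusted p under 0.05, and over genes above the median level 62.6% and 11.3%. The median ranged from -0.43 to -0.24 over 18 alternatives, with the smallest size without ASO replicate 2, and was -0.36 after quantile normalization and -0.34 after cyclic loess. Each array's median deviation over the 7 genes was -0.33 to -0.046 on the ASO arrays and 0.088 to 0.33 on the saline arrays, without overlap. These medians show the same values array by array and add no separate evidence to the fold changes. Genes above the median level also did not overlap on this measure, at -0.058 to -0.0061 on the ASO arrays and 0.040 to 0.18 on the saline arrays, and whether the elongation factors differ from them was not tested.

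Eef1g, a subunit that anchors the exchange complex of eEF1A, had the largest estimated difference of all 54 members. It stood at 5.49, 3.92, 5.35, 4.75 and 5.97 in ASO mice, against 6.79, 6.06, 6.25, 7.20 and 5.33 in saline mice. Saline mouse 5 lay among the ASO livers and the other 4 lay above all of them. The log2 fold change was -1.23 ± 0.42 (SE, 95% interval -2.14 to -0.32, limma adjusted p = 0.306, exact permutation p = 0.0397). A second Eef1g probe gave -0.33 ± 0.25, the same sign at a smaller size.

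Eef1b2, the exchange subunit that reloads eEF1A with GTP, had 4.27, 4.84, 4.01, 4.56 and 4.28 in ASO mice, against 5.28, 4.84, 4.63, 5.09 and 4.88 in saline mice. ASO mouse 2 lay above saline mice 2 and 3, and the other ASO livers lay below every saline liver. Its log2 fold change was -0.55 ± 0.20 (SE, limma adjusted p = 0.341, exact permutation p = 0.0238). The third exchange subunit, Eef1d, had -0.36 ± 0.24 (limma adjusted p = 0.603).

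Eef1a1, the common form of the factor that brings aminoacyl-tRNA to the ribosome, stood at 6.55, 7.08, 6.995, 6.35 and 5.96 in ASO mice, against 6.81, 6.96, 7.24, 7.12 and 6.92 in saline mice. The saline livers were close together and the ASO livers spread below and among them (log2 fold change -0.42 ± 0.23, limma adjusted p = 0.510). A second probe gave 0.20 ± 0.23, and the mean of both -0.11. The muscle and nerve form Eef1a2 had -0.16 ± 0.20 (limma adjusted p = 0.800). The group also held the translocase gene Eef2 at -0.40 ± 0.20, which is the group's median, and Eef1e1, a gene of the complex of tRNA synthetases, at 0.12 ± 0.26. Eef2 read -0.015 ± 0.37 in ASO livers and 0.38 ± 0.22 in saline livers (SD, n = 5 each), in the middle of the scale of all probes, and its difference was -0.21 with a pseudocount.

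**Figure D3:**
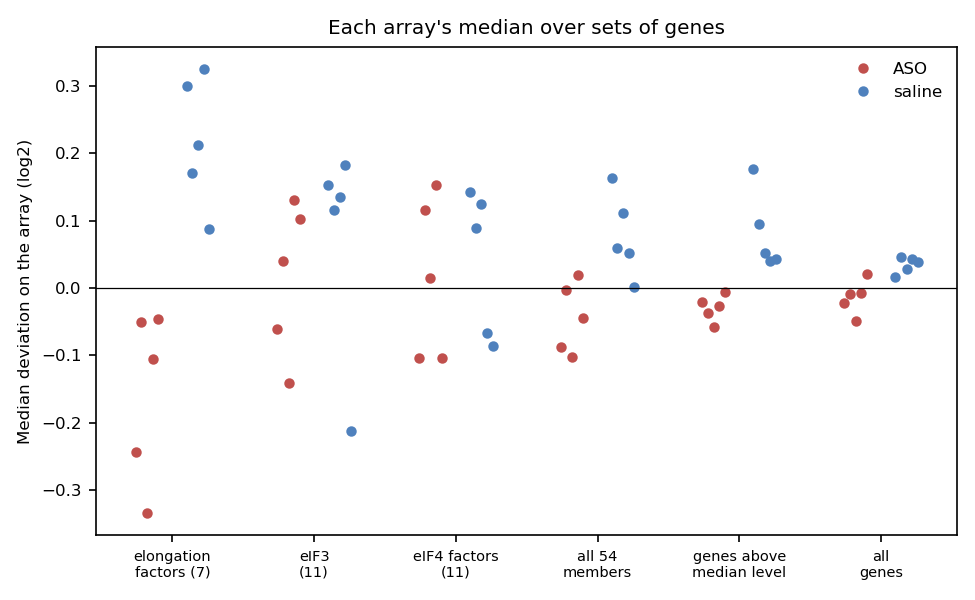
Median over each set of genes of the deviation from the mean of both group means, in log2 units (vertical axis), 1 point per array, ASO left of saline in each set. The elongation factors (7 genes) and the genes above the median level separate the groups, while the eIF3 and eIF4 sets (11 genes each), the 54 members and all genes overlap. The other role groups are not drawn.

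Modifiers of the elongation factors counted 4 genes, 2 higher and 2 lower. Eef1akmt1, which adds methyl groups to a lysine of eEF1A, was the 1 member with an unadjusted p under 0.05 in the higher direction. Its levels were 3.59, 3.97, 3.28, 3.03 and 3.31 in ASO mice, against 2.97, 2.99, 2.67, 3.002 and 2.86 in saline mice. Every ASO liver lay above every saline liver, with ASO mouse 4 only just above saline mouse 4. The log2 fold change was 0.54 ± 0.19 (SE, 95% interval 0.12 to 0.96, limma adjusted p = 0.337, exact permutation p = 0.00794). Eef2k, the kinase that stops eEF2, had -0.29 ± 0.22 (limma adjusted p = 0.650).

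**Figure D4:**
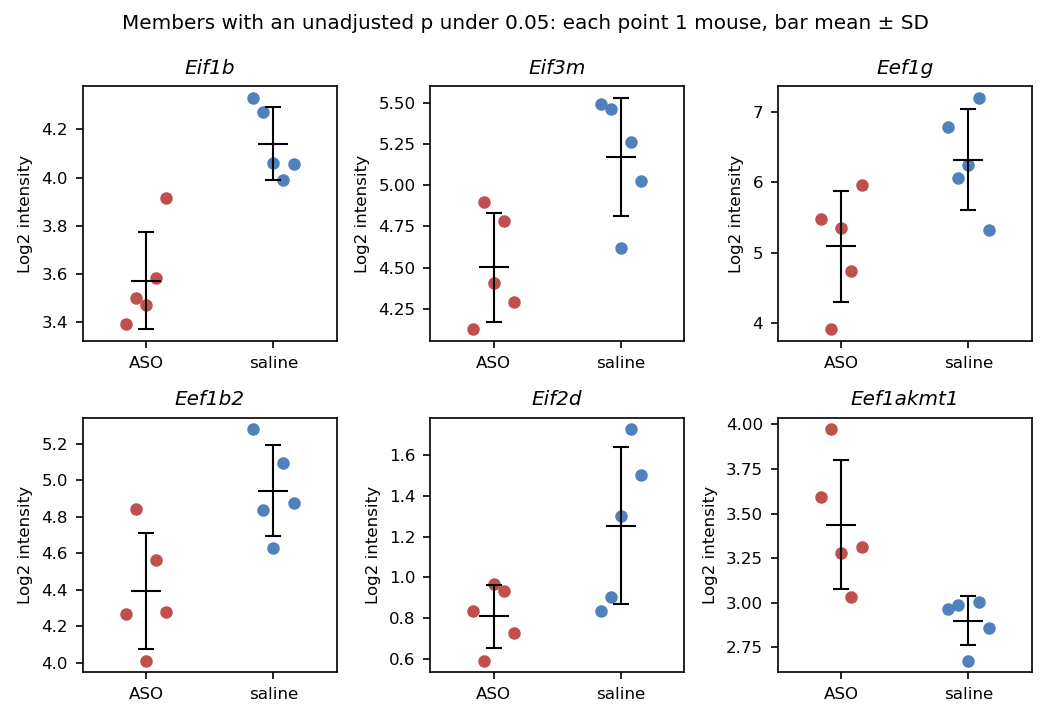
Log2 intensity (vertical axis) in each of the 5 ASO and 5 saline livers for the 6 members with an unadjusted p under 0.05, with mean and SD. Eif1b and Eef1akmt1 show no overlap between the groups, and the other 4 overlap.

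Of the 6 members with an unadjusted p under 0.05, Eif1b, Eif3m, Eef1g and Eef1akmt1 stayed under it in all 18 alternatives, Eef1b2 in 16 and Eif2d in 5. In none of the 18 did any of the 54 members reach an adjusted p under 0.05 in limma.

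Different probes of a gene often differed in sign. The 13 members with several probes had 15 further probes, and 9 of these, in 7 genes, had the opposite sign to the probe used. Some of these signs differed between values near 0, and some further probes were dim. The second Eef1a1 probe, for example, averaged -0.26, below the median of all tested probes. The widest gap was in Eif3e, an eIF3 subunit, where the probe used gave 0.33 ± 0.21 and another gave -0.93 ± 0.42, a difference of 1.26. Eif4b gave 0.44 ± 0.26 and -0.51 ± 0.29, and Eif3b gave -0.54 ± 0.33 and 0.43 ± 0.22. Eif4a3, an RNA helicase of the exon junction complex, had 4 probes at 0.028, -0.031, -0.50 and -0.43. None of these probes had an adjusted p under 0.05 in limma.

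**Figure D5:**
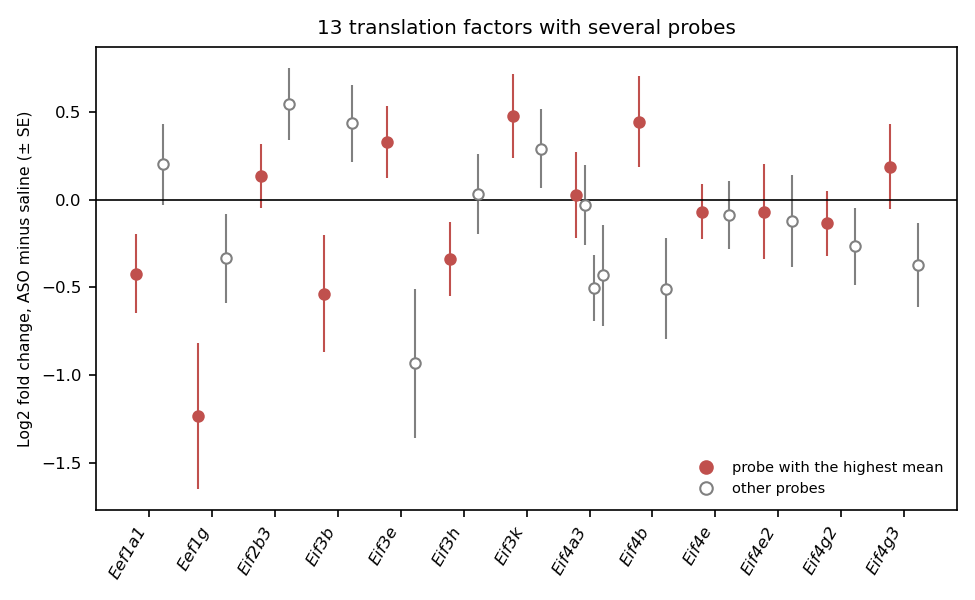
Log2 fold change, ASO minus saline, with SE (vertical axis) for each probe of the 13 translation factors with several probes. Filled points are the probes used and open points the others, and in 7 genes a further probe lies on the other side of 0.

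Elongation factors and some eIF3 subunits are known, from vertebrate cells, to be encoded by 5′ TOP messenger RNAs, which start with a run of pyrimidines and are translated under control of mTORC1. Of the 8 members listed for this feature (Eef1a1, Eef1b2, Eef1d, Eef1g, Eef2, Eif3e, Eif3f and Eif3h), 6 had negative and 2 positive log2 fold changes, with a median of -0.38 (-0.44 to -0.28 over 18 alternatives). None passed in limma, 2 had an unadjusted p under 0.05, both lower, and 5 of the 8 are elongation factors already counted. Among genes above the median level, where all 8 stood, 62.6% had negative values and 11.3% were lower at an unadjusted p under 0.05. Over all genes these shares were 54.9% and 8.26%. The stretches below show the longest run of C and T, in capitals, within 10 bases before and 50 bases from the annotated start of the 4 listed genes that the RefSeq promoter table holds (GRCm38.p6, 5′ to 3′ on the gene's strand).
Eef1a1, chr9:78481715-78481734, minus strand: ctccgCCCTCTTCCCgaggg
Eef1b2, chr1:63176856-63176875, plus strand: ccgagcgCTTTCgttcaact
Eef2, chr10:81176639-81176658, plus strand: cagcggTCTCTTCCgccgca
Eif3f, chr7:108934409-108934428, plus strand: ggCTCTCTCTCTTTCTCggc
Runs were 10, 5, 8 and 15 bases long, so 3 of the 4 held a run of at least 7, as did 32.6% of all 32851 promoters in the same 60 bases. The runs of Eef1a1 and Eif3f began at -5 and -4 from the annotated start, while those of Eef2 and Eef1b2 began at 14 and 32, inside the transcript. Annotated starts may lie some way from the starts used in liver, and a run is a description of these letters only.

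Other genes of translation and its control were read from lists of symbols. As background for their counts, 54.9% of all genes had negative values, and 4.21% were higher and 8.26% lower at an unadjusted p under 0.05. Among genes above the median level these shares were 62.6%, 3.53% and 11.3%. For the kinases that phosphorylate eIF2 and the subunits that reverse it, 2 of 6 genes were higher and 4 lower, and 0 had an unadjusted p under 0.05 in limma. Eif2ak1, the kinase that senses haem, had -0.56 ± 0.37, but ASO mouse 3 stood at the floor of -2.38 beside -0.49 to -0.19 in the other ASO mice, and the difference was -0.16 without it. Eif2ak2, the kinase that senses double-stranded RNA, had 0.15 ± 0.21 (-0.39 when all its probes were averaged). Of 18 genes of the mTORC1 pathway, 8 were higher and 10 lower, with 1 at an unadjusted p under 0.05 in each direction. Tbc1d7, a subunit of the TSC complex that restrains mTORC1, averaged 5.23 ± 0.33 in ASO livers and 4.51 ± 0.43 in saline livers (SD, n = 5 each), with limma adjusted p = 0.301. Akt1s1, another inhibitor of mTORC1, stood at 0.027, -1.54, -2.38, -2.38 and -1.41 in ASO mice, against -0.56, -0.64, -0.067, -0.30 and -0.16 in saline mice. ASO mice 3 and 4 were at the floor, ASO mice 2 and 5 also lay below every saline mouse, and ASO mouse 1 lay above every saline mouse. The estimate was -1.19 ± 0.40 (SE, limma adjusted p = 0.299). It was -0.37 with a pseudocount, which shrinks differences of dim probes, so its size depends on how low values are treated.

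Among 7 genes of the MNK kinases and of poly(A) binding, 4 were higher and 3 lower, and 0 had an unadjusted p under 0.05 in limma. Pabpc4 had -0.18 ± 0.92 (SE), where ASO mouse 5 stood at 5.87 beside 0.29 to 0.65 in the other ASO mice. Its difference was -1.25 without ASO replicate 5 and 0.14 without ASO replicate 4. Pabpc1, the main poly(A)-binding protein of the cytosol, had -0.57 ± 0.26 (limma adjusted p = 0.445) and Mknk2, a kinase of eIF4E, 0.47 ± 0.28 (limma adjusted p = 0.552). Termination and recycling genes were 2 higher and 7 lower of 9, with 2 lower at an unadjusted p under 0.05. These were Denr, which acts in recycling and reinitiation, at -1.39 ± 0.45 (limma adjusted p = 0.290), and Abce1, which splits ribosomes, at -0.70 ± 0.22 (limma adjusted p = 0.279).

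Enzymes that make diphthamide on eEF2 gave the smallest p of these lists. Dph6 stood at 4.41, 4.05, 4.28, 4.27 and 4.28 in ASO mice, against 3.30, 3.44, 3.48, 3.68 and 3.80 in saline mice, a difference of 0.72 ± 0.16 on the log2 scale (SE, limma adjusted p = 0.156). Dph5 stood at 2.43, 2.34, 2.38, 1.82 and 1.77 in ASO mice, against 2.92, 2.69, 2.96, 3.34 and 2.84 in saline mice, a difference of -0.80 ± 0.20 on the log2 scale (SE, limma adjusted p = 0.196). In both genes the groups did not overlap, in opposite directions, and neither passed. The list of hypusine and diphthamide enzymes had 1 gene higher and 4 lower of 5.

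Mitochondrial translation factors were 1 higher and 9 lower of 10, with a median of -0.17 (-0.011 after quantile normalization, -0.31 without saline replicate 4) and 3 lower at an unadjusted p under 0.05. The higher gene was Tsfm, a mitochondrial elongation factor, at 1.201 ± 1.28, where ASO mouse 1 stood at 10.17 beside 2.32 to 2.88 in the other ASO mice, and its difference was -0.32 without ASO replicate 1. Mtif2, the mitochondrial counterpart of bacterial IF2, had -1.18 ± 0.42 (limma adjusted p = 0.332, and -0.20 when its probes were averaged), and Gfm2, a mitochondrial recycling factor, had -0.57 ± 0.24 (limma adjusted p = 0.402). Cytosolic tRNA synthetases and their scaffold genes were 7 higher and 14 lower of 21, with a median of -0.18 (-0.012 after quantile normalization, -0.33 without saline replicate 5), and 1 higher and 3 lower at an unadjusted p under 0.05. Cars, for cysteine, had -0.99 ± 0.30 with groups that did not overlap (limma adjusted p = 0.268), and Tars, for threonine, had -0.79 ± 0.24 (limma adjusted p = 0.274). No gene of these 7 lists passed in limma. Over genes above the median level, 62.6% had negative values, and 3.53% were higher and 11.3% lower at an unadjusted p under 0.05. Whether any list differs from this background was not tested.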

How the data were processed

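The authors deposited intensity values on a linear scale for the 10 arrays. Array medians of 1.03 to 1.05 show them on a common median, with 74 to 377 values at or below 0 per array. Biotin labelling and the CodeLink assay are described per the labels' protocols, while the software, background subtraction, scaling and flags behind the intensities are not stated there. Of 36227 probes, 139 with under 3 values in a group were left out, and 36088 were tested. Before taking log2 of the deposited intensities, values under the 10th percentile of the positive ones (0.192) were raised to it, which understates differences of dim probes. In all, 21615 probes carried 1 gene symbol in the platform annotation. The 54 members all matched a GRCm38.p6 gene table by Entrez ID, with 0 symbols changed, and promoter letters came from RefSeq (GRCm38.p6).

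Each probe was fitted with limma 3.58.1 (lmFit, eBayes) in R 4.3.3, without covariates, since no batch or pairing is given. Tests were two-sided, and p-values were adjusted by Benjamini-Hochberg across the 36088 probes, with a threshold of 0.05. Unadjusted counts and 95% intervals come from the same fit, and single genes also had an exact permutation test over all splits of the arrays into 5 and 5. The procedure was also run on simulated data, drawn as independent normal values without differences between whole arrays. Its outcome is not given here, and nothing is read from it. The 5 arrays per group limit the precision.

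The members and lists were chosen with earlier results of these data known. Named with values were members with an unadjusted p under 0.05, the 2 smallest p of each role group, the 3 highest mean levels, the pairs Eif2s3x and Eif2s3y, Eef1a1 and Eef1a2, and Eif5a and Eif5a2, and the 2 smallest p of each other list. Named beside them, after their values were seen, were Eif2s2, Eif2a, Eif4e, Eif4a1, Eif4a2, Eif4a3, Eif4e1b, Eif4ebp2, Eif4enif1, Eif3b, Eif3e, Eif4e3, Eif6, Eef2, Eef1e1, Tsfm and Pabpc4. The alternatives were quantile normalization, cyclic loess, array weights, no floor, a pseudocount of 1, a filter for probes above the median level, trend and robust in eBayes, averaging a gene's probes, and each array left out.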

Additional observations from a re-analysis of the deposited data

Results flagged for a closer look

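Each group of 5 livers was checked for a value far from the other 4, by the gap to its nearest neighbour over the whole range, in the 54 members and 15 other genes named in the text, and 15 of 138 groups had one. Pabpc4, described above, was not among the genes checked. The rate by chance of about 1 in 20 groups does not hold for genes named after their values were seen, such as Tsfm. Nor does it hold where values were raised to the floor, as in Eif4e1b and Eif2ak1. No rate over all genes is given here, so no excess is read from the count. Eif5b had one in each group, with 0.31 in ASO mouse 1 beside -0.60 to -0.38 in the other ASO mice, and -1.79 in saline mouse 4 beside -0.65 to -0.30 in the other saline mice. Both lie on the side that widens the estimated difference. Eif4e3, a relative of eIF4E, likewise had 1.85 in ASO mouse 4 beside 1.05 to 1.25, and 0.32 in saline mouse 3 beside 1.06 to 1.29. Eif4e1b had -2.19 in ASO mouse 4, where the other ASO mice were at the floor, and -1.67 in saline mouse 3 beside -2.38 to -2.23.

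Eif4a3 stood at 5.22 in ASO mouse 2, beside 6.27 to 6.57 in the other ASO mice. Among saline livers, Eif3l stood at 6.83 in mouse 2 beside 7.07 to 7.15, Eef1e1 at 3.17 in mouse 2 beside 3.97 to 4.17, and Eif6, which keeps the ribosomal subunits apart, at 4.60 in mouse 3 beside 3.25 to 3.55. Outside the members, Tsfm stood at 10.17 in ASO mouse 1 beside 2.32 to 2.88, Eif2ak1 at -2.38 in ASO mouse 3 beside -0.49 to -0.19, and Gfm2 at 1.97 in ASO mouse 5 beside 2.79 to 3.11. Tbc1d7 stood at 3.76 in saline mouse 3 beside 4.63 to 4.89, and Denr at 4.27 in saline mouse 1 beside 3.18 to 3.48.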

How the results depend on the processing

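The count of 0 members past the adjusted threshold in limma held in all 18 alternatives. The 23 probes called over all probes were 39 after cyclic loess, 42 with trend and robust, 7 with no floor, 73 with only probes above the median level, where fewer were tested, and 0 to 16 when each array was left out. Members higher at an unadjusted p under 0.05 (1) were 3 after cyclic loess, 4 after quantile normalization, 2 with a pseudocount, 2 when a gene's probes were averaged and 1 to 2 when each array was left out, with 2 without ASO replicate 1, saline replicate 1 or saline replicate 2. Members lower (5) were 3 after cyclic loess and 3 after quantile normalization. They were 4 with array weights, no floor, trend and robust, or only probes above the median level. When each array was left out they were 5 to 7, with 7 without saline replicate 5. Groups that did not overlap were found in 2 members higher with the mean of all probes, and in 1 to 3 lower when each array was left out. The members' median was 0.038 after cyclic loess and 0.090 after quantile normalization, and that of the eIF4 factors 0.12 after quantile normalization. Leaving out each array gave medians of -0.43 to -0.24 for the elongation factors and -0.069 to 0.17 for the late initiation factors. In 18 of 54 members the sign turned in at least 1 alternative, among them 4 of the 25 named by rule. These were Eif5a2 (0.095 after cyclic loess, 0.13 after quantile normalization, -0.074 to 0.11 when each array was left out), Eif5a (0.030 after quantile normalization, -0.28 to 0.034 when each array was left out), Eif1ad (-0.12 to 0.17 when each array was left out) and Eif4b (-0.032 with the mean of all probes). Of the other genes named, Eif2ak2 (-0.39 with the mean of all probes), Tsfm (-0.32 without ASO replicate 1) and Pabpc4 (0.14 without ASO replicate 4) turned. The cause of these moves was not tested. No paired analysis was made, because the groups are different mice and no pairing is given. The labels give no replicate numbers, so mice and replicates are numbered here by the order of the sample titles.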
